A study of Homo sapiens with 8 samples.

Results

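The MAGE (melanoma antigen) genes were followed in HEK293T cells treated with DZNep. The family was taken as every counted gene whose GENCODE symbol begins with MAGE, a subfamily letter from A to F and a number. This gave 38 of the 57500 genes in the count table, 31 in subfamilies A, B and C and 7 in subfamilies D, E and F. MAGE-A held 17 genes, MAGE-B 11, MAGE-C 3, MAGE-D 4, MAGE-E 2 and MAGE-F 1. GENCODE lists 2 further matching symbols, both long noncoding RNAs, which were not analysed here. Of the 38 genes 33 are protein coding, and the other 5 are 3 pseudogenes and 2 antisense RNAs of MAGE-A genes. MAGEF1 lies on chromosome 3 and the other 37 genes lie on the X chromosome.

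HEK293T is a line derived from human embryonic kidney that expresses the large T antigen of SV40, and both groups are this same line. The 4 DZNep libraries came from cells given 100 µM DZNep (3-deazaneplanocin A), an adenosine analog that inhibits AHCY, for 48 h. The 4 Control libraries came from cells given vehicle for the same time. Sample labels name DMEM as the medium, while the methods of the study name RPMI. The design asks how the inhibitor of methylation alters transcription, and for these genes the comparison was DZNep against Control.

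MAGE proteins share the MAGE homology domain, through which many of them bind RING-type E3 ubiquitin ligases. The MAGE-A, MAGE-B and MAGE-C genes are cancer-testis genes, active in male germ cells, silent in most somatic tissues and re-expressed in many tumors, and DNA methylation of their promoters is known to keep them silent. The MAGE-D, MAGE-E and MAGE-F genes are expressed in many somatic tissues.

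Library totals lay between 25043058 and 44902779 counts. Mitochondrial transcripts took 7.76% and 13.7% of the counts in Control replicates 1 and 4, and 3.02% and 3.16% in replicates 2 and 3. In the DZNep libraries the same replicates held 7.04% and 10.1%, and 4.25% and 4.44%. A count of 0 in a library allows up to 3 counts, which equals 2.42 to 4.62 normalized counts (counts divided by the size factor of the library), and such limits cover counting error only. Among 9 markers of the line, 8 passed the count filter, with a mean of 25005 normalized counts of VIM in Control and 27534 in DZNep. PAX8 did not pass the filter. KRT8, a simple epithelial keratin, was higher with DZNep (log2 fold change 2.44) and LHX1, a kidney transcription factor, was lower (−1.43). By the thresholds used below, 1 of the 8 was thus higher (12.5%) and 1 lower, where 10.6% and 13.5% of all genes tested were. KRT18 (0.83), INA (−0.63) and PAX2 (−0.54) passed the adjusted p-value but not the fold change threshold. NEFM (−0.71), NEFL (0.14) and VIM (0.11) passed neither.

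To show the sequence in front of the genes that the results turn on, 250 bases upstream of the RefSeq start are given for 6 of them (GRCh38.p14, read 5′ to 3′ on the strand of the gene). MAGEC1 and MAGEC2 are the 2 tested MAGE-C genes, MAGEB18 and MAGEB6 are called genes of 1 run on the X chromosome, with MAGEB6B between them, and MAGEA3 and MAGEF1 represent genes with high counts in Control. Capitals mark CG dinucleotides, the sites at which DNA is methylated.
MAGEC2, chrX:142205291-142205540, minus strand: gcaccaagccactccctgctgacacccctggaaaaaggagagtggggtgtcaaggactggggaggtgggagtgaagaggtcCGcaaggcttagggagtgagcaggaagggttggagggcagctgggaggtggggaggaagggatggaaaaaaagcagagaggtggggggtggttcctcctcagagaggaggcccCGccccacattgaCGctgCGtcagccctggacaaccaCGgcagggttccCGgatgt
MAGEC1, chrX:141903644-141903893, plus strand: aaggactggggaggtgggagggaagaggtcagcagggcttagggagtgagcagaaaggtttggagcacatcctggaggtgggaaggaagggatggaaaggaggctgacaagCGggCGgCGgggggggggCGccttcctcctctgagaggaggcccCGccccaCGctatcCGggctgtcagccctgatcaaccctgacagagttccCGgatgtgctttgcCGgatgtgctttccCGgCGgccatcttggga
MAGEB18, chrX:26138093-26138342, plus strand: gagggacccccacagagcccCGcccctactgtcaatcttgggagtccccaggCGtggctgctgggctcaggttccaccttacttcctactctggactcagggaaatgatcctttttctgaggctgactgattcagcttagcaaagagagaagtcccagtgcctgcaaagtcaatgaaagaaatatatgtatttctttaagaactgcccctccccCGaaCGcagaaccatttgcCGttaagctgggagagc
MAGEB6, chrX:26192190-26192439, plus strand: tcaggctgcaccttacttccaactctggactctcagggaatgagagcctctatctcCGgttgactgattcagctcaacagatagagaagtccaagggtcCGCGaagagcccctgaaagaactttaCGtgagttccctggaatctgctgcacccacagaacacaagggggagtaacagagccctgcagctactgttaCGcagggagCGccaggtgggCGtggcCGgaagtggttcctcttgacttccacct
MAGEA3, chrX:152698544-152698793, plus strand: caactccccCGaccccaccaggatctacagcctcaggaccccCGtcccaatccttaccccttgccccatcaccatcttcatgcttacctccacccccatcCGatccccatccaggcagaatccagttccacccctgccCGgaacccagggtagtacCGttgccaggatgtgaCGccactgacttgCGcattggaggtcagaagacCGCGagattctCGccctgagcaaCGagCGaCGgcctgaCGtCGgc
MAGEF1, chr3:184712065-184712314, minus strand: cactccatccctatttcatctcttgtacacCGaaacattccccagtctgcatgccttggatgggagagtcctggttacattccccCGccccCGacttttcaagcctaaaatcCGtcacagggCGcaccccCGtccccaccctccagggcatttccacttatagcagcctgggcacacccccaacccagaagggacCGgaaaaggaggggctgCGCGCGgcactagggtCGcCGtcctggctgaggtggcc
The windows of MAGEC1 and MAGEC2 aligned over 212 columns, of which 167 were identical (78.8%). Those of MAGEB18 and MAGEB6 aligned over 163 columns with 118 identical (72.4%). The windows of MAGEA3 and MAGEA6 were the same in all 250 bases, and the last 27 bases of the MAGEA3 window lie inside the gene as GENCODE draws it. CG dinucleotides numbered 6 for MAGEC2, 11 for MAGEC1, 5 for MAGEB18, 8 for MAGEB6, 15 for MAGEA3 and 12 for MAGEF1. RefSeq windows were found for 31 of the 38 genes. The median was 8 CG over the 32 windows of 24 MAGE-A, MAGE-B and MAGE-C genes, 12 over the 10 windows of the 7 MAGE-D, MAGE-E and MAGE-F genes and 11 over all 35116 windows of the genome (quartiles 3 and 23). All 6 windows shown thus fell between the quartiles of the genome. The core of the ETS motif (CCGGAA or, on the other strand, TTCCGG) was present in 12.5% of the MAGE-A, MAGE-B and MAGE-C windows (4 of 32), 10.0% of the MAGE-D, MAGE-E and MAGE-F windows and 14.5% of all windows. The GC box (GGGCGG or CCGCCC) was present in 37.5%, 80.0% and 42.6%. Neither motif contains the other, and each copy of either holds a CG. These are matches of letters, and no binding or methylation was measured in these files.

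In the vehicle-treated Control cells, the family ranged from genes without a count to abundant transcripts. In Control, normalized counts per kilobase of exon were highest for MAGEF1 (1681), MAGED2 (1490), MAGED1 (1487) and MAGEA3 (1130). MAGED2 and MAGED1 did not differ on this scale beyond their spread between libraries. MAGEB2 (265), MAGEA6 (131) and MAGEA12 (129) followed, and MAGEA6 and MAGEA12 overlapped as well, with 240.9 ± 53.2 and 252.9 ± 13.6 normalized counts per library (SD, n = 4). MAGEE1 reached 69.4 per kilobase, MAGEC2 28.7 and MAGEA10 12.3. The other 7 tested genes had 6.42 per kilobase (MAGEB6) or less. Per kilobase of exon, MAGEA3 thus came near MAGED1 and MAGED2 in vehicle-treated HEK293T cells. Exon length here merges all annotated exons of a gene, 6013 bases for MAGED1, 2943 for MAGED2 and 1773 for MAGEA3. Their reference (Ensembl canonical) transcripts have 2723, 2051 and 1682 bases. On those lengths MAGED1 and MAGED2 would stand further above MAGEA3, so the order of these genes depends on the length used. Counts of MAGED4 (1.64 per kilobase) and MAGED4B (0.91) were near 0. The transcripts of MAGED4 and MAGED4B share 99.0% and 100% of their 100-base windows with each other. Only unique reads were counted, so reads of this pair may have been left out. Of the 31 MAGE-A, MAGE-B and MAGE-C genes, 15 had at most 3 counts over the 4 Control libraries. No library held a count of 6 genes (5 MAGE-A and MAGE-B genes and MAGEE2), and 5 more had 1 to 9 counts in all 8 libraries together.

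**Figure D1:**
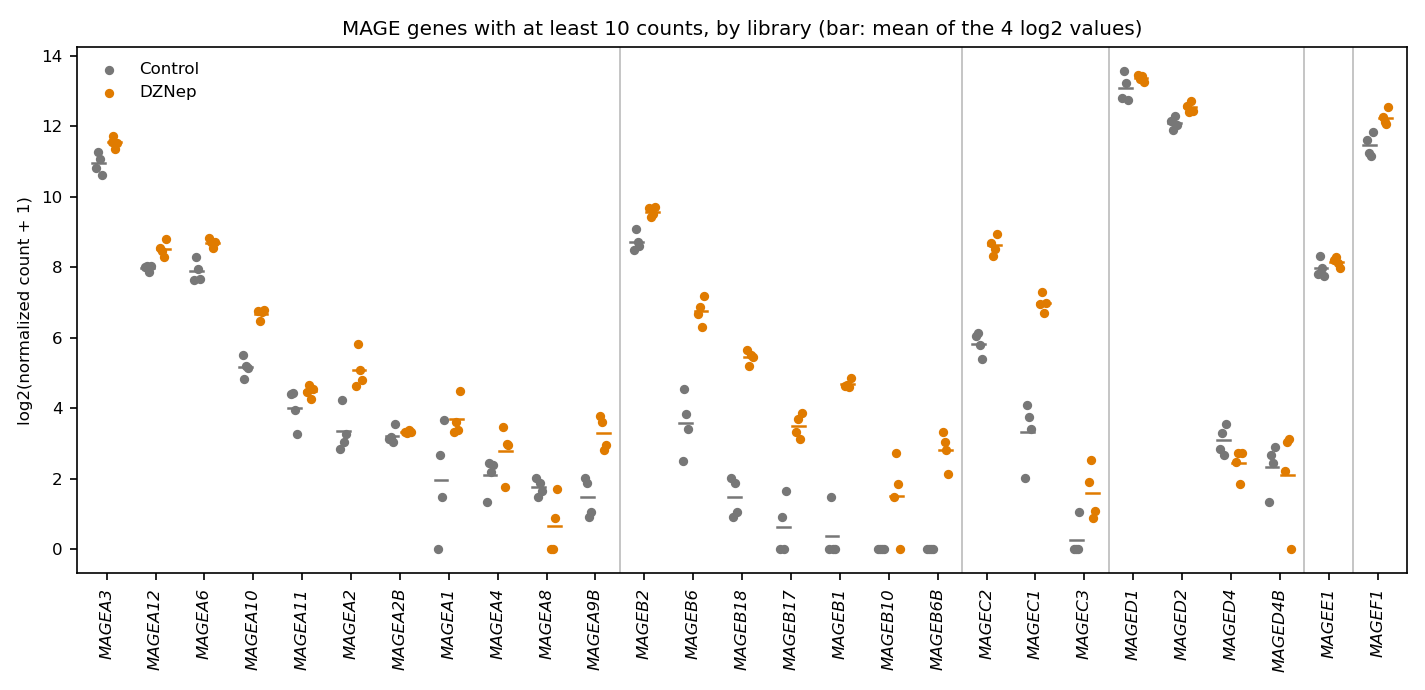
Points show log2(normalized count + 1) of each of the 4 Control (gray) and 4 DZNep (orange) libraries for the 27 MAGE genes with at least 10 counts over all libraries, bars show the mean of the 4 log2 values, and vertical lines separate the subfamilies. DZNep points lie clear of Control points for MAGEC2, MAGEC1, MAGEB18 and MAGEB6, and the groups overlap for MAGED1, MAGEE1, MAGEA1 and MAGEA11.

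With DZNep, 7 of the 13 tested MAGE-A, MAGE-B and MAGE-C genes were higher at an adjusted p-value under 0.05 and a log2 fold change over 1, and 0 were lower. These were MAGEC1, MAGEC2, MAGEB1, MAGEB6, MAGEB18, MAGEA2 and MAGEA10. Over all 19171 genes tested, 10.6% were higher and 13.5% were lower by the same rule. The remaining 18 of the 31 genes did not pass the count filter and were not tested. A gene can pass the filter through the group in which it is high. Of the 13 tested genes 6 were over the count minimum in all DZNep libraries but not in all Control libraries, and 5 of these were called higher, while 60.5% of all 1512 genes that passed in this way were called higher. Of the 6 tested genes over the minimum in all Control libraries, MAGEA10 and MAGEC2 were called higher, against 6.67% of all 16759 such genes. The count of 0 lower genes was also 0 at an unadjusted p under 0.05 in edgeR, and 0 with DESeq2 and with limma. For the 6 genes that passed the filter through DZNep a lower call was hardly possible, so the 0 says little about them. The libraries are bulk RNA, in which more cells that express a gene and more RNA of it in each cell cannot be told apart.

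None of the 4 tested MAGE-D, MAGE-E and MAGE-F genes was called in either direction by edgeR, DESeq2 or limma. MAGED2 and MAGEF1 were higher at an unadjusted p under 0.05 and also by the adjusted p-value alone, and at that unadjusted threshold 0 were lower. The median log2 fold change was 1.50 over the 13 tested MAGE-A, MAGE-B and MAGE-C genes, 0.32 over the 4 MAGE-D, MAGE-E and MAGE-F genes and −0.026 over all genes tested. The first of these medians includes the 6 genes that passed the filter through DZNep. Over the 6 MAGE-A, MAGE-B and MAGE-C genes above the count minimum in all Control libraries it was 0.79, beside −0.087 over all genes of that kind and 0.74 for MAGEF1 alone. The difference between these sets was not tested. By the adjusted p-value alone, 11 of the 13 genes and 2 of the 4 genes were higher, and 19.1% of all genes were. In 11 of the 13 and 2 of the 4, every DZNep library lay above every Control library, which held for 19.5% of all genes. Of 645 tested X chromosome genes outside the family, 10.5% were higher and 12.9% lower.

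**Figure D2:**
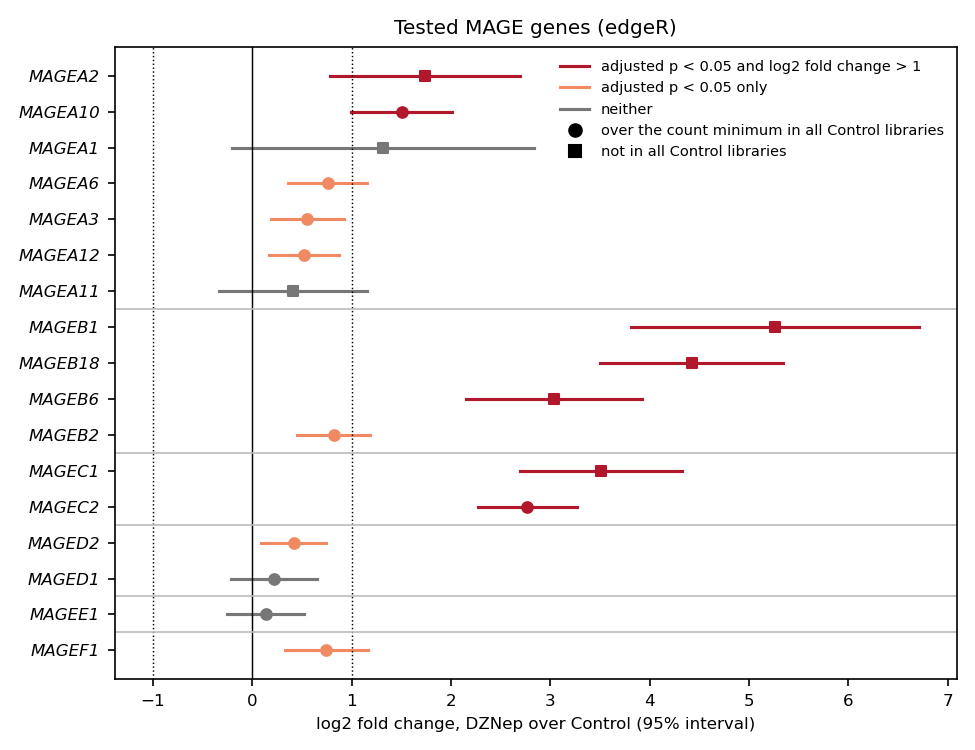
Each of the 17 tested MAGE genes is drawn with its log2 fold change (DZNep over Control, x axis) and a 95% interval derived from the edgeR F statistic. Horizontal lines separate the subfamilies. The 7 genes in dark red passed both thresholds, with values between 1.50 and 5.26, and the value of MAGEB1 rests on 2 Control counts.

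MAGEC2 (ENSG00000046774, chrX:142202342-142205290, minus strand) had the smallest adjusted p-value of the family. Its protein binds the ligase and corepressor TRIM28. Control replicates 1 to 4 held 42, 77, 61 and 38 counts, and the DZNep replicates held 452, 397, 426 and 438. All DZNep libraries were far above all Control libraries. Normalized counts were 57.2 ± 12.4 in Control and 397.6 ± 73.4 in DZNep (SD, n = 4), a log2 fold change of 2.77 (SE 0.22, edgeR adjusted p = 1.94e-05). Per kilobase of exon MAGEC2 rose from 28.7 to 199 normalized counts, which placed it between MAGEA12 (189) and MAGEA6 (227) in treated cells.

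MAGEC1 (ENSG00000155495, chrX:141903894-141909374, plus strand), a cancer-testis antigen of myeloma, lies at lower coordinates than MAGEC2 and is transcribed from the other strand. Its counts were 2, 18, 14 and 9 in Control and 136, 195, 119 and 111 in DZNep. Control replicate 1 was the lowest and also the shallowest library. The log2 fold change was 3.51 (SE 0.37, adjusted p = 7.53e-05). MAGEC3, the third gene of this run, stayed near 0, with 1 count in the 4 Control libraries and 11 in the 4 DZNep libraries (3, 6, 1 and 1). The ratio was 9.56 with a 95% counting interval from 1.39 to 411, and the groups overlapped. Summed over the subfamily, MAGE-C genes held 67.8 ± 13.6 normalized counts in Control and 527.0 ± 67.4 in DZNep, a 7.77-fold ratio, with MAGEC2 taking between 66.4% and 95.5% of the counts in a library.

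MAGE-B genes fell into several runs on the X chromosome. MAGEB18, MAGEB6B, MAGEB6 and MAGEB5 lie between positions 26138343 and 26218270. MAGEB18 (chrX:26138343-26140736), whose protein pairs with the ligase LNX1, had 2, 1, 3 and 1 counts in Control and 54, 44, 52 and 38 in DZNep. Its log2 fold change was 4.42 (SE 0.42, adjusted p = 4.37e-05). MAGEB6 (chrX:26192440-26195646) had 3, 25, 15 and 9 counts in Control and 112, 145, 90 and 128 in DZNep, with a log2 fold change of 3.04 (SE 0.40, adjusted p = 0.000256). The ranges of the groups were far apart for both genes. MAGEB6B was at 0 in all 4 Control libraries and held 10, 9, 7 and 3 counts in DZNep. With Control set to 3 counts over the group, MAGEB6B was 8.40-fold higher. It did not pass the filter, and DESeq2, which tested it, called it higher (adjusted p = 0.00106). MAGEB5 held a single count, in Control.

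A second run, from position 30215563 to 30252040, holds MAGEB2, MAGEB3, MAGEB4 and MAGEB1. MAGEB1 (chrX:30243715-30252040) had 2 counts in Control, both in replicate 2, and 26, 30, 27 and 25 counts in DZNep. The ratio of counts was 46.9 (95% counting interval 12.7 to 392), and the edgeR adjusted p was 0.000190. Its exons share 88 bases with those of MAGEB4, which had no count. MAGEB2, a protein of the nucleolus and of the stress granule response, was already abundant, with normalized counts of 358, 537, 418 and 391 in Control and 815, 685, 721 and 841 in DZNep. The groups did not overlap, and the log2 fold change of 0.82 (SE 0.16, adjusted p = 0.00284) stayed under the fold change threshold. MAGEB3 was at 0 in Control and held 1 or 2 counts in each DZNep library.

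Of the single MAGE-B genes elsewhere, MAGEB17 had 0, 1, 0 and 2 counts in Control and 10, 15, 9 and 12 in DZNep. The ratio was 13.3 (95% counting interval 4.28 to 67.0), and DESeq2 called it higher (adjusted p = 0.00173). Its exons overlap those of an opposite-strand gene by 539 bases, and since the strand setting of the counting is not given in the sources used here, reads of the pair cannot be told apart. MAGEB10 was at 0 in Control and had 2, 7, 3 and 0 counts in DZNep, with overlapping groups. With Control set to 3 counts over the group, MAGEB10 was 3.48-fold higher. MAGEB16 was at 0 in Control and held 1 to 4 counts in each DZNep library, 2.61-fold higher by the same measure. DESeq2 gave neither gene an adjusted p (unadjusted p = 0.0659 and 0.0636). Without the filter, edgeR called MAGEB10 higher (adjusted p = 0.0497) and did not call MAGEB16 (0.0565). Summed over the subfamily, MAGE-B genes held 441.8 ± 85.8 normalized counts in Control and 966.2 ± 94.0 in DZNep, a 2.19-fold ratio. MAGEB2 supplied 95.2% to 97.9% of the Control counts and 77.1% to 81.2% of the DZNep counts.

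Among the 7 tested MAGE-A genes, MAGEA10 and MAGEA2 passed both thresholds. MAGEA10 (ENSG00000124260, chrX:152133310-152138578, minus strand) had 29, 31, 40 and 32 counts in Control and 118, 109, 121 and 98 in DZNep, with little spread within either group. Its log2 fold change was 1.50 (SE 0.23, adjusted p = 0.000587), and 469 of its exonic bases overlap another gene on the same strand. MAGEA2, which binds TRIM28 and p53, had 4, 20, 8 and 8 counts in Control and 26, 69, 38 and 24 in DZNep. Replicate 2 was the highest of each group and the groups did not overlap (log2 fold change 1.74, SE 0.43, adjusted p = 0.00916). Its transcript has 0 differences from that of MAGEA2B, so the reads of the pair are uncertain. MAGEA2B itself had 5, 9, 8 and 10 counts in Control and 10, 11, 11 and 8 in DZNep, and DESeq2 did not call it (adjusted p = 0.891).

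MAGEA3 and MAGEA6, nearly identical partners of TRIM28, and MAGEA12 were the MAGE-A genes with the highest counts. MAGEA3 had normalized counts of 1807, 2476, 2148 and 1581 in Control and 3021, 3354, 2626 and 2964 in DZNep. The lowest DZNep library was above the highest Control library, by a small margin beside the spread of either group. Log2 fold changes were 0.55 for MAGEA3 (SE 0.17, adjusted p = 0.0225), 0.76 for MAGEA6 (SE 0.18, adjusted p = 0.00746) and 0.52 for MAGEA12 (SE 0.16, adjusted p = 0.0231). All were under the fold change threshold. The adjusted p-value of MAGEA3 exceeded 0.05 without Control replicate 1 (0.0697), without DZNep replicate 1 (0.0588) and without DZNep replicate 2 (0.0643). For MAGEA12 it did so without Control replicate 1 (0.0545), Control replicate 3 (0.0645), DZNep replicate 1 (0.0558) or DZNep replicate 4 (0.0584). With no filter on low counts the values were 0.0573 and 0.0575, while the fit with the replicate block gave 0.00118 and 0.00676. The transcripts of MAGEA3 and MAGEA6 differ at 24 positions (98.6% identity) and share 38.6% of their 100-base windows. Only unique reads were counted, so reads from the shared stretches may have been left out of both counts.

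MAGEA1, the first melanoma antigen of the family and a partner of TRIM31, had 0, 6, 2 and 11 counts in Control and 10, 14, 11 and 19 in DZNep. Control replicate 4 lay within the DZNep range. The log2 fold change of 1.31 (SE 0.68, 95% interval −0.21 to 2.83) did not pass the test (adjusted p = 0.153). With the replicate number as a block it was 1.49 and MAGEA1 was called (adjusted p = 0.0293), and without Control replicate 4 it was 2.15 and called as well (adjusted p = 0.0320). MAGEA11, a coregulator of the androgen receptor, had 13, 23, 16 and 8 counts in Control and 23, 30, 21 and 20 in DZNep, with a log2 fold change of 0.41 (95% interval −0.34 to 1.16, adjusted p = 0.362).

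Of the MAGE-A genes under the filter, MAGEA9B had 2, 3, 1 and 1 counts in Control and 14, 14, 7 and 6 in DZNep, and DESeq2 called it higher (adjusted p = 0.0182). Its transcript differs from that of MAGEA9 at 2 positions, and MAGEA9 had no count. MAGEA4, a partner of RAD18, had 1, 5, 4 and 4 counts in Control and 11, 3, 8 and 6 in DZNep. MAGEA8 was the one gene of the MAGE-A group with at least 10 counts whose summed count was lower with DZNep, at 2, 2, 3 and 2 against 0, 0, 1 and 2. DESeq2 called neither (adjusted p = 0.417 and 0.355), and both had overlapping groups. Summed over the subfamily, MAGE-A genes held 2579 ± 442 normalized counts in Control and 3975 ± 344 in DZNep, a 1.54-fold ratio. MAGEA3 alone supplied 73.4% to 79.5% of the counts of every library.

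**Figure D3:**
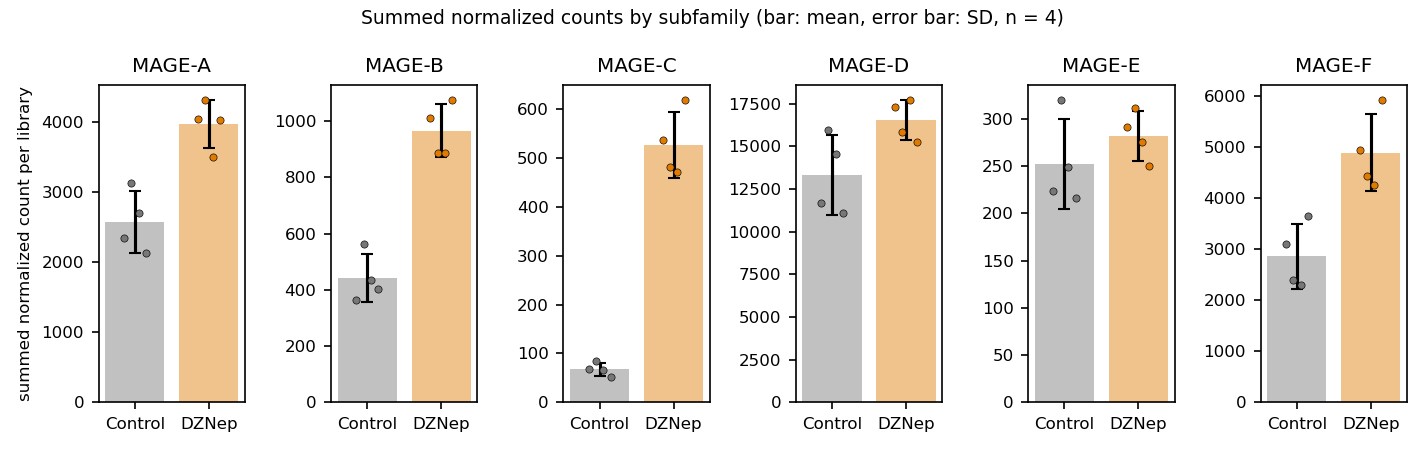
Bars give the mean summed normalized count of each subfamily in the 4 Control (gray) and 4 DZNep (orange) libraries, with SD as error bars, single libraries as points and a separate y axis from 0 for each subfamily. The ratio of means is 7.77 for MAGE-C, 2.19 for MAGE-B, 1.71 for MAGE-F and 1.54 for MAGE-A. It is 1.24 for MAGE-D and 1.12 for MAGE-E, and only for these do the groups overlap.

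Log2 fold changes of the tested genes in the somatic subfamilies lay between 0.13 and 0.74. MAGEF1 (ENSG00000177383, chr3:184710364-184712064, minus strand), which works with the ligase NSMCE1, had normalized counts of 3096, 2401, 2290 and 3655 in Control and 4933, 4435, 4245 and 5922 in DZNep. The groups did not overlap, and replicates 1 and 4 were the higher libraries of both. Its log2 fold change was 0.74 (SE 0.19, adjusted p = 0.0101), in the range of MAGEA6 and MAGEB2. MAGED2, needed for salt reabsorption in the fetal kidney, had normalized counts of 4531, 3832, 5017 and 4157 in Control and 6119, 5447, 6768 and 5489 in DZNep. The groups lay close together without overlap, and the log2 fold change was 0.42 (SE 0.15, adjusted p = 0.0450). Leaving out any 1 of 6 libraries lifted the adjusted p over 0.05: Control replicate 1 (0.0881), 2 (0.0970) or 4 (0.0861), or DZNep replicate 1 (0.0988), 2 (0.0559) or 3 (0.123). It was 0.119 with no filter on low counts and 0.0524 with library sizes alone. With the replicate number as a block it was 0.00402, and the log2 ratios within replicates 1 to 4 were 0.43, 0.51, 0.43 and 0.40.

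MAGED1, which binds the neurotrophin receptor NGFR, had 7167, 12141, 9545 and 6902 normalized counts in Control and 11207, 10402, 10963 and 9776 in DZNep. Its Control libraries spread more widely than its DZNep libraries, and the groups overlapped. The log2 fold change was 0.22 (95% interval −0.21 to 0.65, adjusted p = 0.403), 0.60 with replicates 1 and 4 alone (adjusted p = 0.0283) and −0.055 with replicates 2 and 3 alone (adjusted p = 0.790). MAGEE1, a partner of dystrobrevin, had normalized counts of 223.5, 320.5, 249.0 and 215.9 in Control and 292.0, 311.7, 275.5 and 249.7 in DZNep. The groups overlapped, and the log2 fold change was 0.13 (95% interval −0.26 to 0.52, adjusted p = 0.574). MAGED4 and MAGED4B, whose transcripts are 99.1% identical, held 30 and 18 counts in Control and 20 and 22 in DZNep in all, and did not pass the filter. MAGE-D, MAGE-E and MAGE-F genes together held 16448 ± 1810 normalized counts in Control and 21718 ± 878 in DZNep, a 1.32-fold ratio.

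Replicates 1 and 4, with the higher mitochondrial shares, were also set against replicates 2 and 3. Only genes lower in replicates 1 and 4 were counted, and MAGEF1 went the other way in both groups. In Control, replicates 1 and 4 lay below replicates 2 and 3 in 7 of the 17 tested genes (MAGEA3, MAGEA6, MAGEB2, MAGEB6, MAGEC1, MAGED1 and MAGEE1), which held for 35.2% of all genes tested. In DZNep this was so for 1 gene, MAGEA2, and for 27.5% of all genes. The 7 called genes were called higher both with replicates 1 and 4 alone and with replicates 2 and 3 alone. Log2 fold changes of MAGEB6 were 4.02 and 2.40 in these subsets, those of MAGEC1 were 4.17 and 3.14, and those of MAGEC2 were 3.13 and 2.44. MAGEA6 had 1.13 in the first subset and 0.46 in the second, where it no longer passed the adjusted p-value (0.0947). MAGEB2 had 1.16 and 0.52 and passed the adjusted p-value in both (0.00131 and 0.0358). MAGEA3 had 0.84 and 0.33 and MAGEA12 0.68 and 0.38, and neither passed it in the second subset (0.0924 and 0.165).

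**Figure D4:**
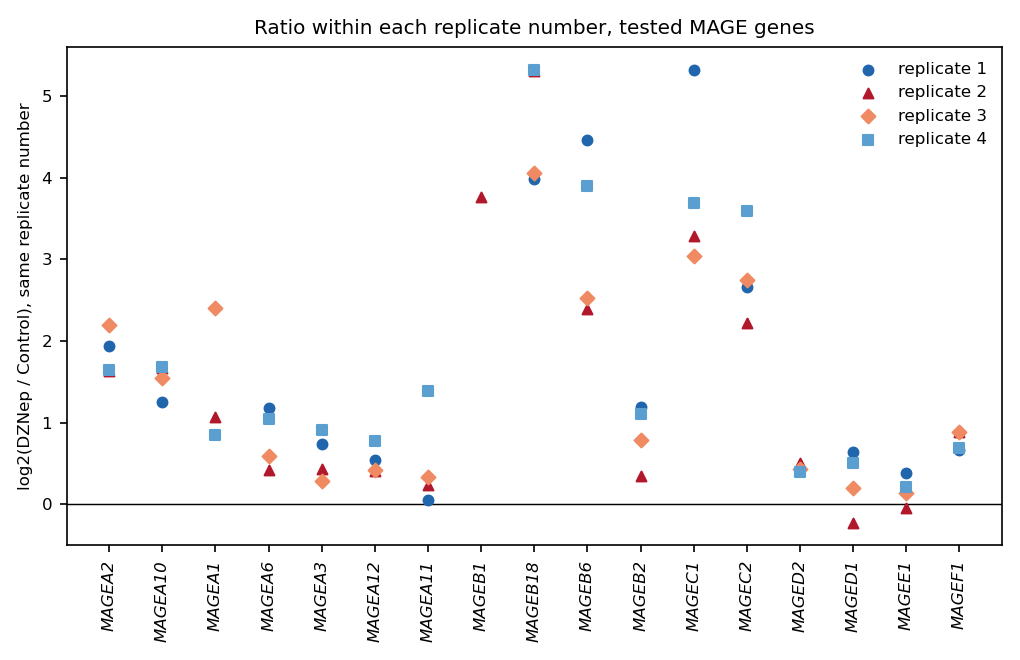
Points give the log2 ratio of normalized counts (DZNep over Control) within each replicate number for the 17 tested genes, with replicates 1 and 4 in blue and 2 and 3 in red, and pairs with a Control count of 0 left out. All pairs drawn lie above 0 except replicate 2 of MAGED1 (−0.22) and of MAGEE1 (−0.04).

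Of 16 ligases and partners of MAGE proteins tested, 2 were higher, 2 were lower and 12 were not called. These are 12.5% in each direction, near the 10.6% higher and 13.5% lower over all genes. NGFR, the receptor bound by MAGED1, was higher (43.9 ± 11.5 normalized counts in Control, 199.2 ± 51.3 in DZNep, log2 fold change 2.14). TRIM31, the partner of MAGEA1, was higher from a low level (6.21 ± 1.72 and 24.8 ± 6.41, log2 fold change 1.93). UNC5A, a netrin receptor bound by MAGED1, was lower (167.3 ± 39.2 and 5.24 ± 3.80, log2 fold change −4.99), and NSMCE1, the ligase of MAGEF1, was lower (2185 ± 787 and 1048 ± 278, log2 fold change −1.09). TRIM28, the partner of MAGEA2, MAGEA3, MAGEA6 and MAGEC2, was not called, with a log2 fold change of −0.038 (adjusted p = 0.883). The median of the list was −0.018, against −0.026 for all genes. Of 4 other genes with a MAGE homology domain, 3 were tested and 0 were called. TRO had 0.61 (adjusted p = 0.0426), NSMCE3 0.12 (0.787) and MAGEH1 −0.018 (0.938). TRO alone of these 3 was past an adjusted p of 0.05 in edgeR, under the fold change threshold.

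Of 99 cancer-testis genes of the X chromosome outside the family, 89 were in the table and 53 of these had no count in Control. Only 10 passed the filter, and 5 of them were higher and 0 lower, with a median log2 fold change of 1.18, where 10.6% of all genes were higher. Among the 5 higher genes, TEX11, CT55 and PAGE4 passed the filter through DZNep alone, as did the 1512 genes of which 60.5% were called higher, a route that requires a low count in at least 1 Control library. TEX11, a meiotic gene, had 0 to 1.54 normalized counts in Control and 16.9 to 39.9 in DZNep. CT55 had 0 to 8.93 and 61.2 to 82.5, and PAGE4 0.893 to 2.69 and 18.5 to 46.1. The other called genes were over the minimum in all Control libraries. TKTL1, a transketolase-like gene, had 38.6 ± 4.71 and 389.5 ± 52.3 normalized counts (log2 fold change 3.30, SE 0.19), and CTAG2 had 12.5 ± 1.44 and 38.3 ± 15.1 (log2 fold change 1.58, SE 0.37).

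Of 18 germ cell markers, 4 passed the filter and 1 was higher, TDRD1 of the piRNA pathway (0 to 3.08 normalized counts in Control, 12.9 to 13.6 in DZNep), which passed through DZNep alone. The other tested markers had negative log2 fold changes that were not called, SYCP2 of −0.91 (adjusted p = 0.0192), SYCP3 of −1.65 (0.0965) and ACRV1 of −0.79 (0.165), and the median over the 4 was −0.85. The summed level of the list was 133 to 398 normalized counts in Control and 161 to 227 in DZNep, and 9 markers, among them DAZL, SYCP1 and PRM1, had no count in Control. Of 10 leukocyte markers, 6 passed and 1 of these was higher (16.7%, where 10.6% of all genes were). This was CD3G, which was at 0 in Control and at 11.8 to 17.3 in DZNep. Like TDRD1, it passed the filter through DZNep alone, as did 1512 genes of which 60.5% were called higher. The summed level of this list was 188 to 389 and 254 to 457, and CD3D, CD3E and MS4A1 had no count in Control. The part of other cell types in the MAGE results was not tested.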

How the data were processed

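RNAseq of 8 HEK293T libraries was used, grouped by the treatment and replicate number in the labels. From paired 150 bp reads, the authors made raw counts of unique exonic reads for 57500 genes by trimming (Trimmomatic 0.36), mapping to GRCh38 (STAR 2.5.2b) and counting (featureCounts, Subread 1.5.2). The annotation release and strand setting are not given in the sources used here. They also deposited a signal table of normalized counts for 19118 genes, 16 of them MAGE genes, in which dividing the counts by a single factor for each library gives every value. The same factors were applied to the other MAGE genes. GENCODE release 44 supplied symbols for 56410 genes, coordinates and exon lengths, and RefSeq the promoter sequences.

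Counts of the 19171 genes that passed filterByExpr were tested with edgeR 4.0.16 (R 4.3.3) by the quasi-likelihood test with TMM normalization and Benjamini-Hochberg adjustment, and a call needed an adjusted p-value below 0.05 together with a log2 fold change beyond 1 in either direction. The SE of a log2 fold change was derived as its absolute value divided by the square root of the edgeR F statistic. The 95% interval used this SE and a t quantile. The study's methods used the Wald test of DESeq2, here an alternative (1.42.0) beside limma 3.58.1. Scripts were tested on simulated data. Where Control held 0 counts, the fold sets Control to 3 counts over the group. It takes the DZNep count without its counting error, so it is not a strict lower bound. With 1 to 3 Control counts the ratio has an exact 95% counting interval. All MAGE genes tested were named, and untested ones if they had at least 10 counts in all. Of other lists up to 3 called genes per direction were named. Others, such as TRIM28, TRO and TKTL1, were named after their values were seen. The members and lists were chosen with earlier results of these data known.

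Libraries totaled 25043058 to 44902779 counts, and every pair within a group differed by more than sampling noise (chi-square per degree of freedom at least 26.9 over 12 pairs). The study calls the replicates biological. Deviations from the group means correlated at 0.14, 0.49, 0.43 and 0.67 between libraries of replicates 1 to 4, all over 0.1. Control replicate 1 correlated better with a DZNep library of another number, so its pairing is less certain. Equal numbers were treated as pairs in the replicate block and in the ratios within replicates. The main test had no such block. Alternatives were DESeq2, limma on log2(normalized count + 1), other scalings, filters and thresholds, the replicate block, and leaving out each library. Replicates 1 and 4 alone, and 2 and 3 alone, were added after seeing the data.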

Additional observations from a re-analysis of the deposited data

Results flagged for a closer look

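Of 54 sets of 4 libraries checked (27 genes in each group), 2 held a library far from the others, where chance alone is set to give about 1 in 20. MAGEB1 stood at 1.79 normalized counts in Control replicate 2 and at 0 in the other Control libraries. MAGEC3 stood at 1.07 normalized counts in Control replicate 4 and at 0 in the others. These values are 2 counts and 1 count, so both are at the limit of what the depth can show.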

How the results depend on the processing

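The 7 called MAGE-A, MAGE-B and MAGE-C genes were called higher under every alternative in which they were tested. The number higher was 11 of 26 tested with no filter on low counts. With at least 10 counts in every library it was 2 of 6 (MAGEA10 and MAGEC2). It was 11 of 13 with no fold change threshold, 10 of 20 with DESeq2 and 9 of 13 with replicates 1 and 4 alone. The replicate block gave 8 of 13, and it added MAGEA1 and changed no other call of the family by both thresholds. Leaving out each library gave 7 to 8. MAGE-D, MAGE-E and MAGE-F genes higher numbered 2 with no fold change threshold and 0 otherwise. Over all genes, 1141 of 15870 tested were higher with at least 10 counts in every library, and 2965 of 40246 with no filter on low counts. DESeq2 called 2934 of 27742 higher, and the replicate block 2243 of 19171. With no fold change threshold, 3656 of 19171 were higher and 4171 lower. MAGED1 changed sign with replicates 2 and 3 alone (−0.055), and the cause was not tested. MAGEA1 with the replicate block (1.49) and without Control replicate 4 (2.15), and MAGEA6 (1.13) and MAGEB2 (1.16) with replicates 1 and 4 alone, came past both thresholds. The fitted log2 fold change of MAGEB1 was 7.64 without Control replicate 2, which then leaves no Control count. Members with few counts were limited by depth, since 3 counts equal 2.42 to 4.62 normalized counts. For MAGED4 with MAGED4B, and MAGEA9 with MAGEA9B, reads shared by the pair may also be missing, since only unique reads were counted.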

Other observations

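The runs of MAGE genes on the X chromosome enclose 65 other genes, of which edgeR tested 14. By both thresholds 2 rose with DZNep (14.3%, where 10.6% of all genes did) and 0 fell. PNMA5, a gene of the paraneoplastic antigen family, held 0 to 3.22 normalized counts in Control and 14.5 to 42.7 in DZNep, and it passed the count filter through DZNep alone. GABRQ, a subunit of GABA receptors, held 37.0 ± 23.5 in Control and 97.1 ± 39.3 in DZNep (SD, n = 4), with overlapping groups (log2 fold change 1.34, SE 0.47, adjusted p = 0.0448). CSAG1, CSAG2, CSAG3 and CSAG4, cancer-testis genes that lie among the MAGE-A genes, were not called, with log2 fold changes of 0.43, −0.29, 0.58 and 0.73. The median over the 14 genes was 0.42, against −0.026 over all genes tested.

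Of 11 genes for methylation of DNA and histone H3, with CTCFL counted among them, 1 was higher and 0 were lower. The share higher was 9.09%, near the 10.6% of all genes tested, of which 13.5% were lower. CTCFL (BORIS), a germ cell paralog of CTCF, held 5.37 to 30.4 normalized counts in Control and 73.3 to 127.0 in DZNep (log2 fold change 1.89, SE 0.44, adjusted p = 0.00644). It passed the count filter through DZNep alone, as did 1512 genes of which 60.5% were called higher. DNMT1, the maintenance DNA methyltransferase, had a log2 fold change of −0.16 (adjusted p = 0.527) and UHRF1, its partner at replicated DNA, one of −0.0047 (adjusted p = 0.983). DNMT3A had −0.95, under the fold change threshold in size (adjusted p = 0.000358). EHMT2 (0.79, adjusted p = 0.00164), SUV39H1 (0.70, 0.00262) and SETDB1 (0.45, 0.0208), which methylate histone H3, had positive values under that threshold. EHMT1 (−0.24, edgeR adjusted p = 0.204), SUV39H2 (−0.24, 0.470) and EZH2 (−0.15, 0.570), which also methylate histone H3, had negative values. The names beyond CTCFL were chosen after their values were seen.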
